A study of Mus musculus with 10 samples.

Results

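Genes of cholesterol handling were followed in macrophages of the brain's borders, namely Apoe, Abca1, Abcg1, Lpl, Nr1h3, Lipa, Npc1, Npc2 and Plin2. They were taken by symbol from a table of read counts, 9 of its 53546 genes, and all 9 had enough counts to be among the 14023 genes tested. RNA sequencing profiled CNS-associated macrophages (CAMs), the resident macrophages of the meninges, perivascular spaces and choroid plexus, sorted from the brains of individual mice. The design asks how transcript levels differ between mice with and without the Mrc1-CreERT2 allele, which encodes a tamoxifen-inducible Cre recombinase and is named for Mrc1, the mannose receptor gene. Cre-Cre mice were Mrc1-CreERT2/Mrc1-CreERT2 (4 mice), Cre-pos mice carried the allele on a single chromosome (3 mice, numbered 1, 2 and 4), and WT mice lacked it (3 mice). All were C57BL/6N, 6 to 8 weeks old, kept specific-pathogen-free and not treated, so no group tests induced Cre, and no floxed gene is named in the labels. The sample titles carry a letter m or f, and each genotype held both letters.

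Cells take up cholesterol in lipoproteins, free it in lysosomes, store the excess as esters in lipid droplets, and hand the rest to lipoprotein particles outside. In macrophages the nuclear receptor LXR, which senses oxysterols, raises transcription of the exporters Abca1 and Abcg1 and of Apoe, while SREBP2 raises synthesis and uptake when sterols run low. In the brain, which makes its own cholesterol behind the blood-brain barrier, apolipoprotein E is the main carrier of lipid between cells and is known chiefly as a product of astrocytes, of microglia in disease and of border macrophages.

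Library totals ran from 27358042 to 36575446 counts in Cre-Cre, from 22986972 to 32326603 in Cre-pos and from 28668839 to 32931690 in WT mice. Mrc1 checked the labels, at 489 ± 48.6 CPM (counts per 1000000, scaled by trimmed means) in Cre-Cre, 2153 ± 153 in Cre-pos and 3481 ± 365 in WT mice (SD, n = 4, 3 and 3). The 15 CAM markers summed to 22165 to 23600 CPM in Cre-Cre, 16800 to 19990 in Cre-pos and 16022 to 18144 in WT libraries, so the labelled cell type was present throughout. The 15 monocyte and dendritic cell markers summed to 2215 to 8382 CPM in Cre-Cre, 8473 to 19025 in Cre-pos and 14594 to 27418 in WT libraries. Between 95.8% and 99.3% of that sum in each library came from 3 MHC class II genes, H2-Aa, H2-Ab1 and Cd74, which border macrophages are known to express themselves. The other 12 markers summed to 92.3 to 238 CPM in Cre-Cre, 177 to 257 in Cre-pos and 191 to 333 in WT libraries, and Chil3 and S100a8 were at 0 in every library. The monocyte marker Ccr2 measured 5.72 to 9.29 CPM in Cre-Cre, 35.1 to 57.9 in Cre-pos and 68.0 to 161 in WT libraries. Other expressed markers of that list did not follow it. Cd209a measured 34.5 to 160 CPM in Cre-Cre and 90.9 to 123 in WT libraries, with overlap. Zbtb46 measured 25.2 to 66.0 CPM in Cre-Cre and 11.2 to 41.3 in WT libraries, also with overlap. The 12 microglia markers summed to 9909 to 12330 CPM in Cre-Cre, 12847 to 15827 in Cre-pos and 10912 to 19626 in WT libraries, highest in WT 3 and next in Cre-pos 4. Much of each microglia sum came from Fcrls (3939 to 5629 CPM over the 10 libraries) and Cx3cr1 (2179 to 3448 CPM).

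The promoters shown are those of the carrier and of its main export partner, chosen because both genes are known LXR targets. The sequences are RefSeq's on GRCm38.p6, from 250 bases before to 50 bases after the gene's start. The Apoe window is at chr7:19699139-19699438, and the Abca1 window at chr4:53159846-53160145. Both are on the minus strand and printed 5′ to 3′, and capitals mark a match to a direct repeat of the kind LXR binds.
Apoe: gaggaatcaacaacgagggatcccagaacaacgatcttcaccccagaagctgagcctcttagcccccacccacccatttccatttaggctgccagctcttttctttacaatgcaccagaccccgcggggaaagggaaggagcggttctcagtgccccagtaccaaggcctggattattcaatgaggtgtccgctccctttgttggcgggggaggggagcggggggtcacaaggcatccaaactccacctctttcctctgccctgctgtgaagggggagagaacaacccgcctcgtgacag
Abca1: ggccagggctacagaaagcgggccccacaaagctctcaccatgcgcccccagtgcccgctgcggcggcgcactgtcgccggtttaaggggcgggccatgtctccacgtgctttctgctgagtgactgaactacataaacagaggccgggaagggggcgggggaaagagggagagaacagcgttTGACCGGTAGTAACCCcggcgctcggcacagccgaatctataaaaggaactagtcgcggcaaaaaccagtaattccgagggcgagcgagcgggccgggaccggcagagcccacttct
The letters searched were 2 copies of NGGTNA with 4 bases between them, on both strands, a form chosen with the Abca1 element known. The match in Abca1 begins 67 bases before the start, and such a match was found in 236 of 32851 promoters (0.718%). An E-box, CACGTG, lies 147 bases before the Abca1 start and was found in 7.15% of promoters. The Apoe window, which belongs to the most upstream of 3 starts listed, holds neither motif, and Apoe in macrophages is known to be driven by distant enhancers. A match is a description of letters, and no binding was measured here.

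Apoe was the most abundant transcript in all 10 libraries. It held 3.18% to 4.78% of a library's counts, with 95% exact binomial intervals of at most 0.00799 percentage points to either side, which cover counting error only. Per library it measured 47475, 41288, 38612 and 39431 CPM in Cre-Cre mice, 45542, 45359 and 31516 in Cre-pos mice, and 32555, 39740 and 36539 in WT mice. The highest library was Cre-Cre 1 and the lowest Cre-pos 4, and the 3 genotypes overlapped. Because sorted cells were measured in bulk, fewer cells of a type and less RNA per cell cannot be told apart. Astrocytes are a classical source of Apoe in the brain, and 12 astrocyte markers summed to 48.2 to 92.7 CPM in Cre-Cre, 45.3 to 74.6 in Cre-pos and 16.9 to 102 in WT libraries. Of these markers Fgfr3 was at 0 in every library, while Aldh1l1 had counts in every library (2.37 to 49.1 CPM), Slc1a3 reached 60.5 CPM in WT 3, and Gja1 measured 3.78 to 13.5 CPM in Cre-Cre and Cre-pos libraries and 0 in WT libraries. The part of astrocyte transcripts in the Apoe counts was not tested.

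Placed on a scale of CPM per kilobase of transcript, which allows levels to be compared between genes, Apoe averaged 35289 and ranked 1 of 13704 genes with a length. Npc2, the soluble lysosomal protein that lifts free cholesterol and passes it to Npc1, came next among the 9 at 266 (rank 271). Plin2, the coat protein of lipid droplets, stood at 126 CPM per kilobase and Lipa, the lysosomal acid lipase that frees cholesterol from esters, at 115, and their libraries overlapped almost entirely. The lipid exporter Abca1 averaged 39.2, and Npc1, the membrane protein that moves cholesterol out of the lysosome, 20.4. Lower still were Lpl, the secreted lipase that acts on lipoprotein triglycerides, at 10.7, the exporter Abcg1 at 6.20, and Nr1h3, which encodes LXRα, at 4.71 CPM per kilobase. Over the 10 libraries the ranges of neighbours did not overlap from Apoe to Npc2, from Npc2 to Plin2, from Lipa to Abca1 or from Abca1 to Npc1. The range of Lpl overlapped that of Npc1, and those of Lpl, Abcg1 and Nr1h3 overlapped one another.

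**Figure D1:**
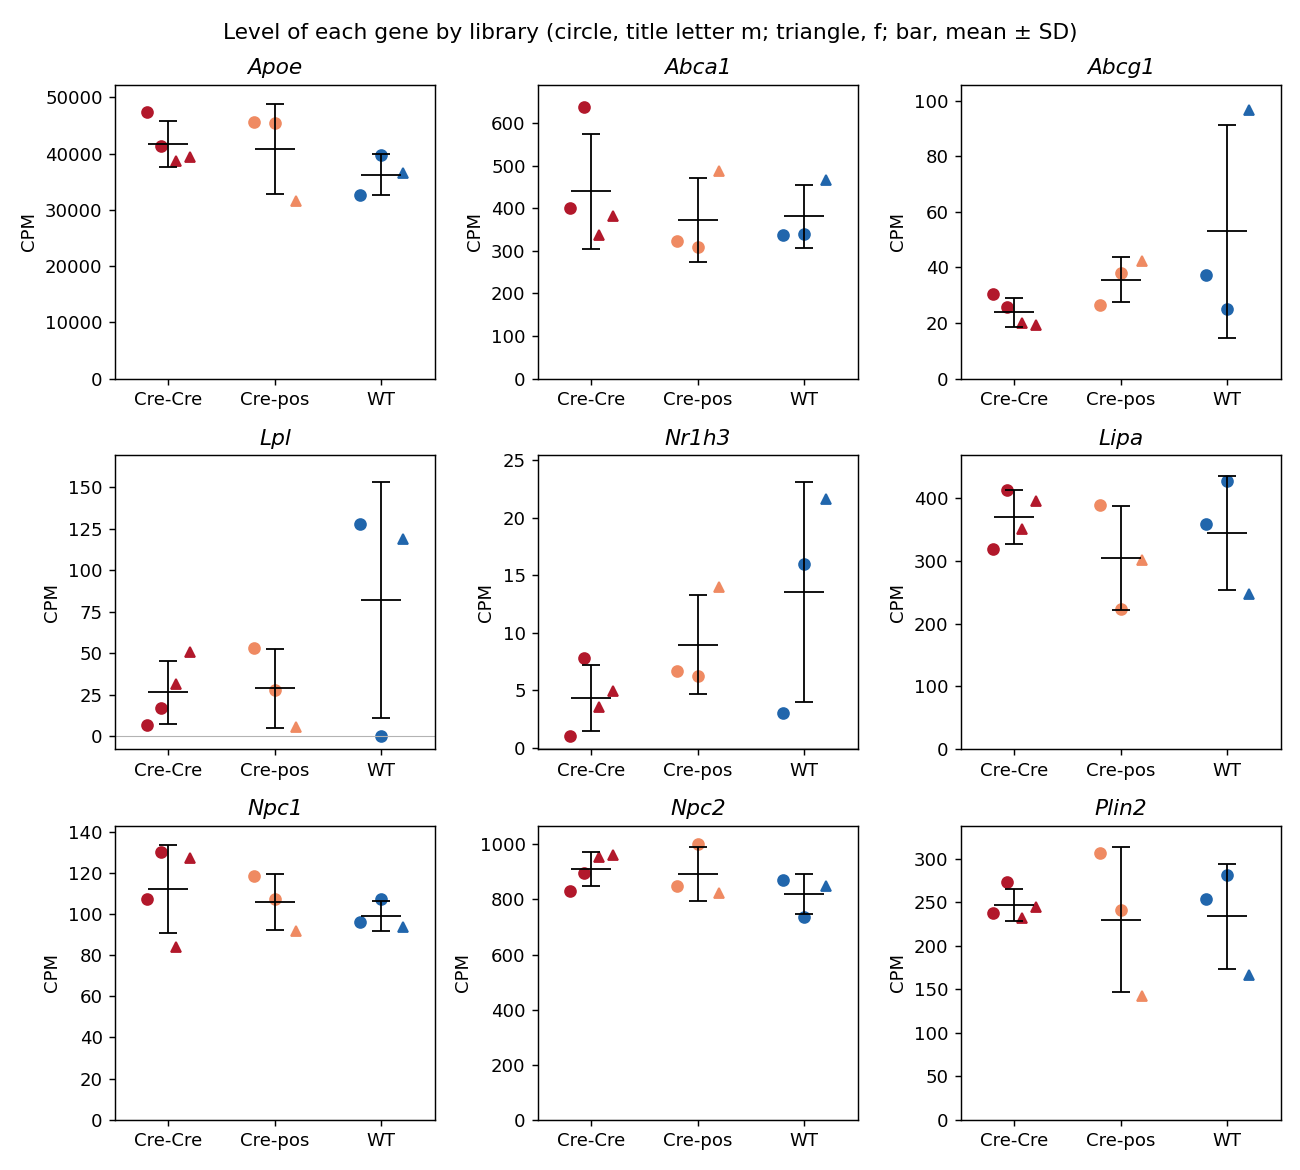
Level of each of the 9 genes in CPM (linear axis from 0 up) in every library, by genotype; circles carry the title letter m, triangles f, and bars give the mean ± SD of 4 Cre-Cre, 3 Cre-pos and 3 WT libraries. The genotypes overlap in all 9 panels, and the wide WT spread of Abcg1, Lpl and Nr1h3 comes with single libraries such as WT 3 (Abcg1, 96.5 CPM) and WT 2 (Lpl, 0 CPM).

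No gene of the 9 passed the test between Cre-Cre and WT mice, and 6 of 9 were fitted above 0, with a median log2 change of 0.10, against 0.02 over all genes. In edgeR's quasi-likelihood test, with p-values adjusted over all 14023 genes, 0 of 9 were called at an adjusted p under 0.05, against 0.0642% of all genes. At an unadjusted p under 0.05 there was 1 of 9 (Abcg1), against 7.52% of all genes, and DESeq2 and limma-voom also called 0 of 9. In none of the 9 did the CPM of Cre-Cre and WT libraries separate, against 7.97% of all genes. These counts are near the background, and the smallest adjusted p among the 9 was 0.624.

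For the abundant genes the intervals were narrow enough to bound the difference. Apoe averaged 41702 ± 4008 CPM in Cre-Cre, 40806 ± 8046 in Cre-pos and 36278 ± 3599 in WT mice (SD, n = 4, 3 and 3). Cre-Cre over WT was 1.15-fold, with a 95% interval from 0.939 to 1.41 (edgeR log2 change 0.20, SE 0.13, adjusted p 0.876). The other genotype differences were log2 0.17 (SE 0.14, 95% interval -0.14 to 0.48) for Cre-pos over WT and 0.03 (SE 0.13, -0.26 to 0.32) for Cre-Cre over Cre-pos.

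Both exporters move cholesterol out of the cell membrane, Abca1 to lipid-poor apolipoproteins and Abcg1 to lipid-richer particles. Abca1 measured 400, 638, 337 and 382.4 CPM in Cre-Cre mice, 324, 309 and 487 in Cre-pos mice, and 337, 339 and 465 in WT mice. A single library of each genotype was high (Cre-Cre 2, Cre-pos 4 and WT 3), and the rest lay between 309 and 400. Its log2 change in Cre-Cre over WT was 0.21 (SE 0.24, 95% interval -0.33 to 0.75, edgeR adjusted p 0.999). It was -0.03 (SE 0.26) for Cre-pos over WT and 0.24 (SE 0.24) for Cre-Cre over Cre-pos. Abca1, with an LXR-type repeat in its promoter window above, thus did not differ beyond its spread between libraries.

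Abcg1 measured 30.4, 25.8, 20.1 and 19.4 CPM in Cre-Cre mice, 26.5, 38.1 and 42.1 in Cre-pos mice, and 37.3, 25.1 and 96.5 in WT mice. The genotypes overlapped, since WT 2 lay below 2 of the 4 Cre-Cre libraries, and WT 3 stood far above the other 9. The means were 23.9 ± 5.19 in Cre-Cre, 35.6 ± 8.10 in Cre-pos and 53.0 ± 38.2 CPM in WT mice. Cre-Cre was 0.452-fold of WT (95% interval 0.235 to 0.869), a log2 change of -1.15 (SE 0.42) with an edgeR p of 0.0220 before and 0.624 after adjustment (adjusted p). Without WT 3 the change was -0.38 (log2), and Cre-pos over WT turned to 0.19, against -0.57 (SE 0.46) with it. Fitted over the number of allele copies, Abcg1 changed by -0.57 (log2) per copy (SE 0.20, edgeR unadjusted p 0.0158, adjusted p 0.601), which also missed the threshold. Without WT 3 that slope was -0.24.

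Nr1h3, the LXRα gene, was scarce, at 0.981, 7.82, 3.51 and 4.98 CPM in Cre-Cre mice, 6.69, 6.25 and 13.9 in Cre-pos mice, and 3.03, 16.0 and 21.6 in WT mice. The order of its means was that of Abcg1, with 4.32 ± 2.86 in Cre-Cre, 8.96 ± 4.32 in Cre-pos and 13.6 ± 9.55 CPM in WT mice, and the genotypes overlapped because WT 1 was low. Its log2 change in Cre-Cre over WT was -1.65 (SE 0.85, 95% interval -3.54 to 0.24, edgeR adjusted p 0.711), and leaving out single libraries gave -2.11 to -1.14. A noncoding transcript, Gm13783, shares 34 bases with its exons (1.35%), so a few reads could belong to either.

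**Figure D2:**
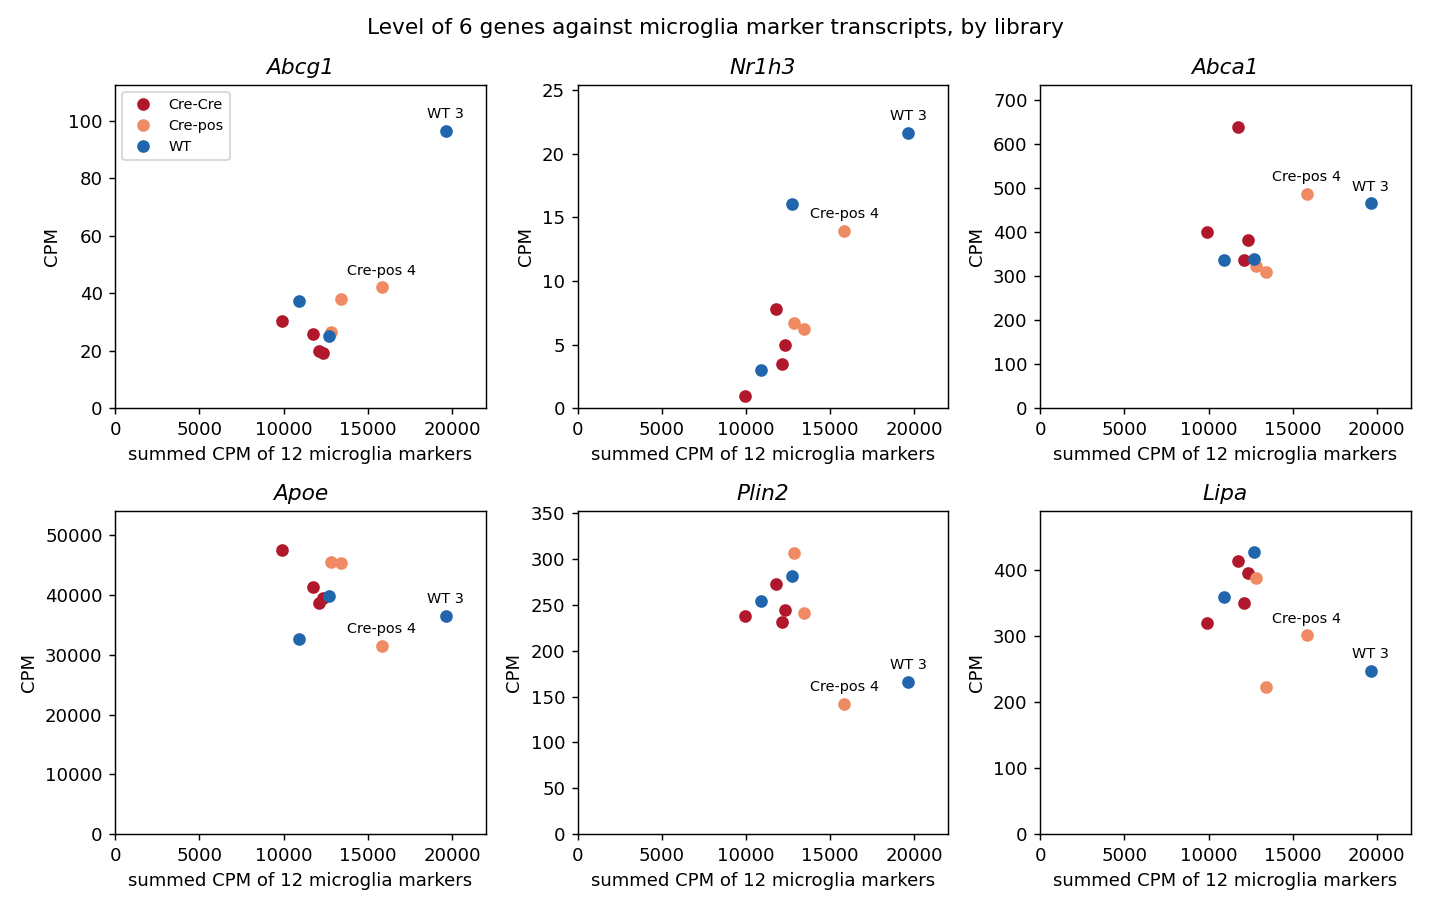
Level of Abcg1, Nr1h3, Abca1, Apoe, Plin2 and Lipa in CPM (vertical) against the summed CPM of 12 microglia markers (horizontal), 1 point a library, coloured by genotype. WT 3 (19626 CPM of markers) and Cre-pos 4 (15827 CPM) lie at the right, with Abcg1 at 96.5 and 42.1 CPM and Plin2 at 166 and 142 CPM.

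The libraries with most microglia transcripts were also those in which several of the 9 genes stood apart. WT 3, with the microglia marker Tmem119 at 824 CPM, had the highest Abcg1 and Nr1h3 of the 10 libraries and the second lowest Plin2 and Lipa. Cre-pos 4, with Tmem119 at 512 CPM, had the second highest Abcg1, the lowest Plin2 and the lowest Apoe. Tmem119 lay between 86.2 and 130 CPM in Cre-Cre libraries. The part of microglia transcripts, and of the monocyte, dendritic cell and MHC class II transcripts given above, in these levels was not tested.

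Lpl was the least stable of the 9. It measured 7.12, 16.9, 31.9 and 50.7 CPM in Cre-Cre mice, 53.0, 28.2 and 5.61 in Cre-pos mice, and 128, 0 and 119 in WT mice. WT 1 held 3752 and WT 3 held 3819 counts of Lpl, while WT 2 held none. A count of 0 allows up to 0.0917 CPM (3 counts), a limit that covers counting error only. The spread within genotypes was 3.57 (SD on the log2 scale), larger than that of 99.6% of the 6336 genes of similar abundance, whose median was 0.53. That SD rests largely on the 0 of WT 2, whose place on the log2 scale is set by the prior count of 2. WT 2 had 12 of 6425 genes at 0 that averaged at least 20 CPM in the other libraries (0.187%), against 1 to 20 such genes in the other 9 libraries, a count made after the values were seen. The log2 change in Cre-Cre over WT was -1.62 (SE 1.41, 95% interval -4.75 to 1.50, edgeR adjusted p 0.989), and limma-voom put it at 2.04. No direction can be given for Lpl, and Cre-Cre differed from Cre-pos by -0.12 (log2, SE 1.41).

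The 3 lysosomal genes were called in none of the comparisons, and their genotypes overlapped. Npc2 measured 830, 895, 956 and 962 CPM in Cre-Cre mice, 850, 1003 and 823 in Cre-pos mice, and 873, 737 and 849 in WT mice. Its spread within genotypes, 0.13 (SD, log2), was among the smallest at its abundance, with 6.18% of 1698 genes below it and a median of 0.25. Cre-Cre was 1.11-fold of WT (95% interval 0.949 to 1.30, edgeR adjusted p 0.899). Npc1, its partner in the lysosomal membrane, averaged 112 ± 21.4 in Cre-Cre, 106 ± 13.5 in Cre-pos and 99.0 ± 7.22 CPM in WT mice. Its log2 change in Cre-Cre over WT was 0.18 (SE 0.18, 95% interval -0.22 to 0.58). Its exons share 511 bases (4.52%) with Rmc1 on the opposite strand, and the kit does not mark strand, so part of the Npc1 reads could be Rmc1's.

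Lipa, which supplies the cholesterol that Npc2 and Npc1 export, measured 319, 413, 350 and 394.9 CPM in Cre-Cre mice, 388, 222 and 301 in Cre-pos mice, and 358, 426 and 247 in WT mice. The 3 lowest values were those of Cre-pos 2, WT 3 and Cre-pos 4, and all genotypes overlapped. Its log2 change was 0.10 (SE 0.22) in Cre-Cre over WT, -0.18 (SE 0.23) in Cre-pos over WT and 0.28 (SE 0.22) in Cre-Cre over Cre-pos.

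Plin2, whose protein rises with stored lipid in macrophages, measured 238, 273, 231 and 245 CPM in Cre-Cre mice, 307, 241 and 142 in Cre-pos mice, and 254, 281 and 166 in WT mice. The Cre-Cre libraries lay close together, inside the range of the WT libraries. The log2 change in Cre-Cre over WT was 0.08 (SE 0.25, 95% interval -0.48 to 0.63, edgeR adjusted p 0.999), and in Cre-Cre over Cre-pos it was 0.10 (SE 0.25).

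**Figure D3:**
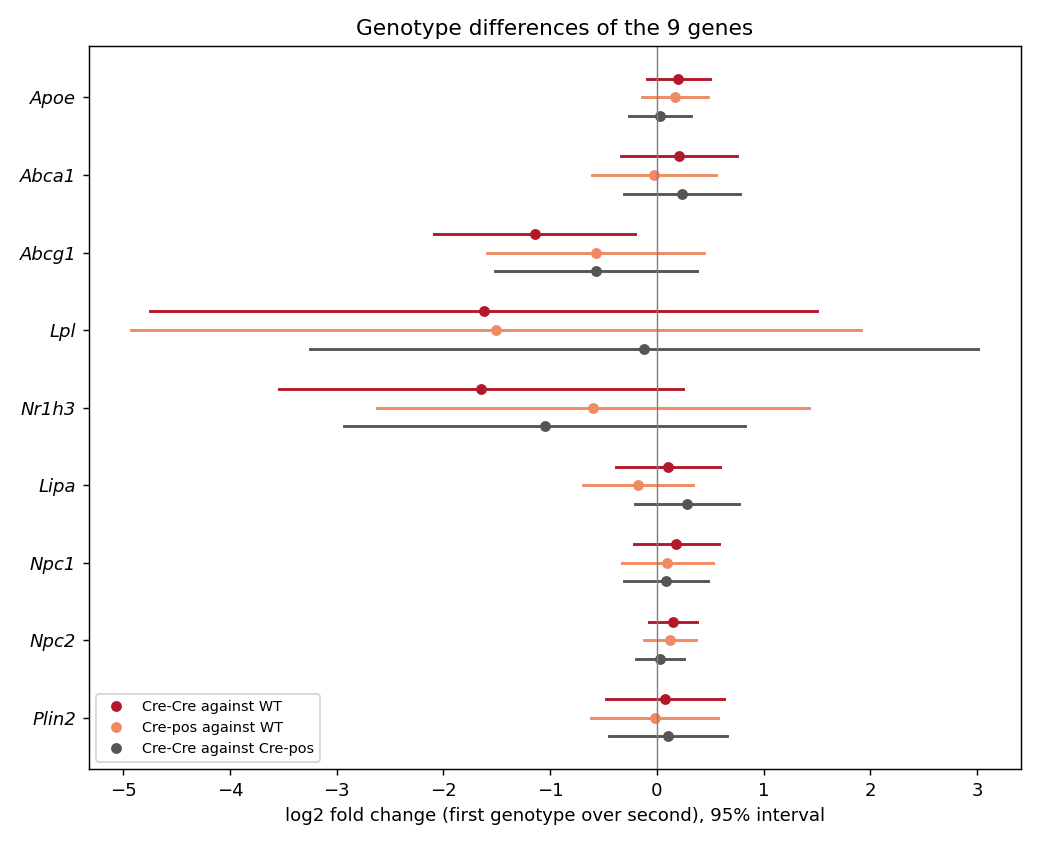
Log2 fold change of each gene (points) with its 95% interval (lines) from edgeR, for Cre-Cre over WT, Cre-pos over WT and Cre-Cre over Cre-pos. The intervals of Apoe (-0.09 to 0.49) and Npc2 (-0.08 to 0.38) in Cre-Cre over WT are short, that of Lpl (-4.75 to 1.50) is the longest of that comparison, and that of Abcg1 (-2.09 to -0.20) leaves out 0 before adjustment.

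The heterozygous mice and the fit over allele copies gave no call among the 9 either. Between Cre-pos and WT mice edgeR called 0 of 9 genes, against 0% of all genes, and 0 of 9 passed at an unadjusted p under 0.05, against 5.82%. Even Mrc1, at 0.618-fold in Cre-pos over WT and without overlap, was not called there (edgeR adjusted p 0.300), so the absence of calls does not show an absence of change. Between Cre-Cre and Cre-pos mice it called 0 of 9, against 0.0214%, and 0 of 9 passed unadjusted, against 4.86%. Over allele copies it called 0 of 9, against 0.0428%, with Abcg1 the 1 gene under an unadjusted p of 0.05, against 5.78%. Neither Cre-pos and WT libraries (9.6% of all genes separate) nor Cre-Cre and Cre-pos libraries (7.47%) separated in any of the 9. DESeq2 and limma-voom called 0 of the 9 in each of these comparisons. Cre-Cre and Cre-pos mice were set against the same WT libraries, so these comparisons are not independent of each other.

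By title letter, with genotype in the model, Plin2 and Apoe were fitted lower with letter f and did not pass the adjusted threshold. Plin2 averaged 196 ± 49.9 CPM in 4 libraries with letter f and 266 ± 26.3 in 6 libraries with letter m, a log2 difference of -0.50 (SE 0.16, edgeR unadjusted p 0.0122, adjusted p 0.746). Apoe measured 36525 ± 3554 CPM with letter f and 41993 ± 5452 with letter m (log2 -0.22, SE 0.09, edgeR unadjusted p 0.0404, adjusted p 0.794), and without Cre-pos 4 the difference was -0.12. In all, 0 of 9 were called by letter, against 0.0214% of all genes, while 2 of 9 were under an unadjusted p of 0.05, against 6.14%. WT 3 and Cre-pos 4, the libraries richest in microglia transcripts, are the only letter f libraries of their genotypes.

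The wider pathway was read through 7 lists of genes, none of which held a gene called by edgeR in any of the 3 genotype comparisons. The LXR axis beyond the 9 genes was balanced, with 6 of 14 tested genes fitted above 0 and a median log2 change of -0.06, against 0.02 over all genes. Pltp, a phospholipid transfer protein and LXR target, averaged 713 ± 55.5 CPM in Cre-Cre and 723 ± 112 in WT mice, a log2 change of -0.02 (SE 0.14). Ncor1, a corepressor of nuclear receptors, had 0.27 (SE 0.19), and Smpdl3a, a phosphodiesterase induced by LXR, -0.10 (SE 0.22). Apoc1, the apolipoprotein gene beside Apoe, also missed the threshold, at -0.95 (SE 0.56), and Mylip, an LXR target that encodes a ubiquitin ligase, at -0.95 (SE 0.48), both chosen after their values were seen.

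Genes of cholesterol synthesis and its regulator SREBP2 were fitted higher in Cre-Cre than in WT mice in 24 of 26 cases (92.3%, against 51.1% of all genes), with a median log2 change of 0.29, against 0.02. None of the 26 passed the adjusted threshold, and 2 of 26 were under an unadjusted p of 0.05 (7.69%, against 7.52% of all genes). Msmo1, a sterol C4-methyl oxidase, averaged 271 ± 18.0 CPM in Cre-Cre mice (258 to 297) and 195 ± 14.2 in WT mice (185 to 212), without overlap. Its log2 change was 0.47 (SE 0.11, edgeR adjusted p 0.321). Srebf2, which encodes SREBP2 itself, had a log2 change of 0.11 (SE 0.16) and Cyp51, a sterol demethylase, 0.28 (SE 0.28).

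The heterozygous mice were compared with the same WT libraries, and their values stand beside these. In Cre-pos over WT 21 of 26 were fitted above 0 (median 0.23), and in Cre-Cre over Cre-pos 13 of 26 (median -0.01). Over the alternative settings, added for this list after its values were seen, the count in Cre-Cre over WT ran from 18 to 24, lowest without WT 1 (median 0.18). Genes of a pathway are measured in the same libraries and are not replicates, so the count carries no test.

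Among receptors and uptake genes 7 of 10 were fitted above 0 (median 0.14). The scavenger receptor Msr1 averaged 361 ± 22.2 in Cre-Cre and 280 ± 52.5 CPM in WT mice (log2 0.37, SE 0.20, edgeR adjusted p 0.726), without overlap, and Cd36, a fatty acid and lipoprotein scavenger receptor, had a log2 change of 0.22 (SE 0.31).

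The lysosomal list, home of the partners of Lipa, Npc1 and Npc2, had the largest share of the 7 lists under an unadjusted p of 0.05, 4 higher and 2 lower of 21 (28.6%, against 7.52% of all genes), and 0 after adjustment. Hexa, which encodes a subunit of a lysosomal enzyme that breaks down gangliosides, averaged 2994 ± 103 in Cre-Cre and 2396 ± 298 CPM in WT mice (log2 0.32, SE 0.09, edgeR adjusted p 0.443). Glb1, a lysosomal galactosidase, had 0.60 (SE 0.13, edgeR adjusted p 0.276) and Asah1, acid ceramidase, 0.26 (SE 0.06, edgeR adjusted p 0.357), both named after their values were seen, and Lamp1, a lysosomal membrane protein, 0.18 (SE 0.10).

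The remaining lists, on what happens to lipid once freed, were close to balance in Cre-Cre over WT, where 51.1% of all genes were fitted above 0. Of the genes of cholesterol esters and lipid droplets 11 of 20 were tested, as genes such as the adipocyte perilipins Plin1 and Plin4 and the Cide genes had too few counts. There 4 of 11 were fitted above 0 (median -0.06). In Cre-pos over WT it was 2 of 11 (median -0.14), against 50.7% of all genes. Soat1, which esterifies cholesterol for storage, averaged 295 ± 42.2 in Cre-Cre, 304 ± 14.5 in Cre-pos and 292 ± 76.9 CPM in WT mice, a log2 change in Cre-Cre over WT of 0.01 (SE 0.17). Bscl2 (seipin, a droplet assembly protein) had -0.06 (SE 0.19) and Plin3, another droplet coat protein, -0.18 (SE 0.32). Of the partners of Lpl and of fatty acid handling 6 of 14 were fitted above 0 (median -0.08), and Gpihbp1, which anchors Lpl at capillaries, had too few counts. Acsl5 had a log2 change of -0.04 (SE 0.13) and Acsl3, likewise a fatty acid activating enzyme, 0.34 (SE 0.28), and Cpt1a, which admits fatty acids to mitochondria, 0.53 (SE 0.35). In Cre-pos over WT Acsl5 was at -0.43 (log2, SE 0.13, edgeR adjusted p 0.791), without overlap. In Cre-Cre over Cre-pos it was at 0.39 (log2, SE 0.13), also without overlap and not called.

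Sterol transfer and oxysterol genes, only some of which make the oxysterols that LXR senses, had 8 of 16 fitted above 0 (median 0.01). Cyp27a1, a sterol 27-hydroxylase, averaged 206 ± 17.1 CPM in Cre-Cre and 187 ± 11.9 in WT mice (log2 0.14, SE 0.15). The oxysterol-binding protein genes Osbpl9 and Osbpl11 had 0.06 (SE 0.15) and -0.07 (SE 0.22).

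**Figure D4:**
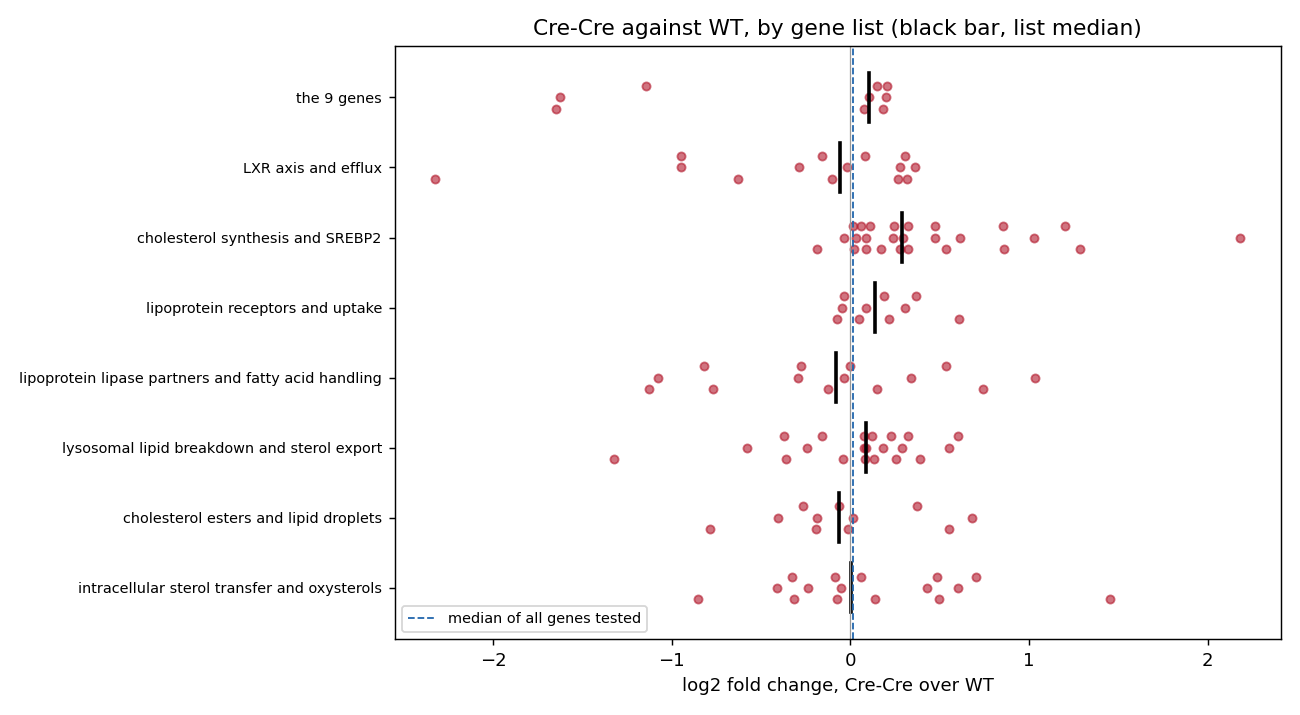
Log2 fold change of Cre-Cre over WT for the 9 genes and for the tested genes of 7 lists (points; rows are offset vertically for legibility), with list medians as black bars and the median of all 14023 genes as a dashed line. The synthesis list lies to the right (median 0.29, against 0.02 for all genes), and the other lists have medians between -0.08 and 0.14.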

How the data were processed

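The authors deposited whole-number read counts per gene symbol for 10 libraries of sorted CAMs. Per the labels' protocols, 500 pg of RNA a sample went into the SMARTer v4 low-input kit, which does not mark strand, and then into Nextera XT, and all samples carry the same batch label. The submitters' processing notes name bcl2fastq 2.20, STAR 2.7.8a and featureCounts 2.0.2. Not given in the sources used here are the strand setting, the annotation and the genome build.

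By filterByExpr on genotype, at its minimum count of 10 and minimum total of 15, there were 14023 testable genes of the 22778 with any count. Libraries were scaled by trimmed means of M values, and CPM are counts per 1000000 so scaled. The test was edgeR's quasi-likelihood test with robust estimation (edgeR 4.0.16, R 4.3.3), with all 10 libraries and genotype as the term. Benjamini-Hochberg adjustment covered every gene tested, with calls at 0.05. Standard errors are the log2 change over the root of F, and 95% intervals use the test's degrees of freedom. Allele copies as a number and the title letter beside genotype were fitted likewise. Spreads and nearest profiles use log2 CPM with a prior count of 2. Replicates of a genotype all differed by more than counting noise (chi-square per gene at least 87.1). The same fits were also run on simulated counts, with an outcome that is not reported here and that no result above draws on.

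Symbols were matched to GENCODE vM21 (93.5%) for exon overlaps and for transcript length, the median of a gene's APPRIS principal transcripts. Promoters came from RefSeq, with an entry for 6 of the 9 genes. The 9 genes, the lists and the motif were chosen with earlier results of these data known, so no list test was run. Named from each list were the 3 tested genes of highest mean CPM, and others are marked as chosen after their values were seen. Some genes that this rule names are not reported here. Alternatives were DESeq2's size factors, library totals, no filter, a stricter filter, DESeq2 1.42.0, limma-voom (limma 3.58.1), no robust estimation, the letter as covariate, the replicate number as block, a fit of only the 2 genotypes in question, and leaving out every library in turn.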

Additional observations from a re-analysis of the deposited data

How the results depend on the processing

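None of the 9 genes was called in any of the 5 comparisons under any alternative run. The number of genes called over all was what moved. For Cre-Cre over WT it was 9, and became 290 with DESeq2, 17 with the letter as covariate, 1 with the replicate block, 2 with only the 2 genotypes and 2 to 12 with single libraries left out. For Cre-pos over WT it was 0, and 236 with DESeq2 (816 genes at an unadjusted p under 0.05 in edgeR). For Cre-Cre over Cre-pos it was 3, and became 123 with DESeq2, 1 without robust estimation, with the letter, with the replicate block or with only the 2 genotypes, and 1 to 2 with single libraries left out. Per allele copy it was 6, and became 179 with DESeq2, 12 with limma-voom, 0 with the replicate block and 2 to 6 with single libraries left out. For letter f over m it was 3, and became 11 with no filter, 7 with the stricter filter, 174 with DESeq2, 6 with limma-voom and 0 to 3 with single libraries left out, and the replicate block could not be fitted there. The cause was not tested.

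Some log2 changes crossed 0. The largest move was that of Lpl, which limma-voom put at 2.04 in Cre-Cre over WT (-1.62 in edgeR), 2.13 in Cre-pos over WT (-1.50 in edgeR) and 0.74 per copy (-0.79 in edgeR). With limma-voom Apoe in Cre-Cre over Cre-pos was -0.0029. In Cre-Cre over WT, Soat1 was -0.0075 with DESeq2 or its size factors and -0.017 with the block, Pltp 0.019 with the letter and 0.063 with the block, Acsl5 0.0014 and Osbpl9 -0.046 with the block. With single libraries left out, Cre-Cre over WT ran from -0.029 to 0.38 for Abca1, -0.085 to 0.29 for Lipa, -0.12 to 0.23 for Plin2, -0.13 to 0.25 for Soat1, -0.18 to 0.075 for Bscl2, -0.080 to 0.12 for Pltp, -0.0042 to 0.27 for Srebf2, -0.045 to 0.12 for Osbpl9, -0.24 to 0.010 for Smpdl3a, -0.40 to 0.23 for Plin3, -0.34 to 0.12 for Osbpl11 and -0.14 to 0.11 for Acsl5. Cre-pos over WT ran from -0.27 to 0.14 for Abca1, -0.00022 to 0.18 for Npc1, -0.41 to 0.0023 for Lipa, -0.30 to 0.22 for Plin2 and -0.91 to 0.19 for Abcg1 (-0.57 with all libraries). Cre-Cre over Cre-pos ran from -0.11 to 0.13 for Apoe, -0.64 to 0.66 for Lpl, -0.016 to 0.12 for Npc2 and -0.14 to 0.37 for Plin2. Per copy they ran from -0.014 to 0.20 for Abca1, -0.0077 to 0.16 for Lipa and -0.040 to 0.12 for Plin2. By letter they ran from -0.13 to 0.31 for Abca1, -0.14 to 0.59 for Abcg1 and -0.27 to 0.0041 for Lipa. DESeq2 called Msmo1 (adjusted p 0.0136) and Hexa (adjusted p 0.0350) in Cre-Cre over WT, which edgeR did not, and over all alternatives their adjusted p reached 0.612 and 0.700. For Abcg1 it ran from 0.257 with DESeq2 to 0.878.

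Deviations from the genotype means correlated at -0.0118 to 0.0347 between libraries that share a replicate number. Between libraries of different numbers they correlated at -0.0467 to 0.0215. Whether the numbers pair the mice cannot be told from values this small. With 3 or 4 mice a genotype, the intervals of Cre-Cre over WT reached up to 1.41-fold for Apoe and 1.30-fold for Npc2. Larger folds in Lpl or Nr1h3 lie inside their intervals.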

Other observations

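Genes whose profile over the 10 libraries lay nearest to those of 4 of the genes were listed as a description, among 3523 other genes averaging at least 50 CPM. The measure is the root-mean-square difference of log2 CPM centred on its mean. Nearest to Apoe were Ctsa, lysosomal cathepsin A, at 0.07, Tspan14 at 0.09 and Pip4k2a at 0.10, against 0.19 for Apoe's own deviation from its mean. Nearest to Abca1 were Smarcd2, a chromatin remodelling subunit, at 0.16, Igsf6 at 0.17 and Vcam1, an adhesion molecule, at 0.18, against 0.31 for its own deviation. Among the nearest to Plin2 were Dnajc3, an endoplasmic reticulum chaperone, at 0.15 and Sirt2 at 0.16, against 0.33. No profile was near that of Lpl, with Clp1 at 2.18, Coa5 at 2.42 and Hyal2 at 2.48, against 3.03.

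The other marker lists were low beside the macrophage lists. Over the 10 libraries the 10 oligodendrocyte markers summed to 140 to 336 CPM, the 10 endothelial markers to 64.0 to 127, the 11 fibroblast and mural cell markers to 2.81 to 24.9, the 10 neuron markers to 2.54 to 23.9 and the 9 B cell markers to 270 to 772. The 8 choroid plexus epithelium markers summed to 3.95 to 168 CPM in Cre-Cre, 2.43 to 191 in Cre-pos and 1.65 to 525 in WT libraries.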
